A study of Solanum lycopersicum with 9 samples.

Results

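Sequences annotated as ribosomal proteins were followed in leaves of the tomato (Solanum lycopersicum) cultivar Diana given the phenolic acid p-hydroxybenzoic acid (PHBA) at 15 or 30 mM, or none of it (0 mM, control), and sampled 2 days later. A sequence was a member if its Pfam annotation, which assigns protein families, held an entry with the words ribosomal protein, and if it reached 0.5 FPKM in at least 3 of the 9 libraries. FPKM is the number of fragments per length of the sequence and per mapped fragments of the library, so levels can be set side by side between sequences. Of the 82125 assembled sequences in the deposited table, 44203 reached that level, 13634 of them with an annotation, and 188 were members. A further 13 sequences matched the words and stayed below the level. Plants were about a month old, each dose had 3 libraries, and the labels name a single cultivar and no transgene or mutation. The labels also say that equal amounts of RNA from plants of a treatment were pooled, and whether each library of a dose stands for its own plants is not stated. The p-values cover the spread between libraries alone, and that spread may be technical.

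A ribosome has a large and a small subunit, each built from ribosomal RNA and many small basic proteins, and it translates messenger RNA into protein. A plant cell holds 3 kinds of ribosome. Those of the cytosol are of eukaryotic type and translate the messenger RNA of nuclear genes, while those of plastids and mitochondria are of bacterial type and translate the few messages of the organelle's own genome. In leaves the plastid ribosomes make core subunits of the photosystems and the large subunit of Rubisco.

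By the names of their protein families, 73 members were cytosolic, 43 of the large subunit and 30 of the small one. The bacterial-type organellar members numbered 59, of which 40 were of the large and 19 of the small subunit. Another 40 belonged to families named alike in both kinds of ribosome, such as L2, L6 and S13, and are called members of either kind. The remaining 16 were non-structural proteins that share a domain name with ribosomal proteins or act on them. The pathway column of the annotation held only enzyme names and gave no ribosomal protein name to any member, so the split rests on the other family databases in the annotation. Those give no tomato gene name, and the reference gene table held none of the identifiers. Identifier and family therefore stand in for a gene name. Several may be pieces or near-identical copies of a gene whose reads were divided among them, and 13 members fell into 6 assembly components that hold more than 1 member.

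The FPKM threshold touched few members, since 175 of the 188 reached 0.5 FPKM in all 9 libraries. Just inside it, 5 members reached the level in 3 libraries and had means of 0.439 to 0.499 FPKM. Just outside it, 7 sequences reached it in 2 libraries and had means of 0.353 to 0.428 FPKM. All 64 calls described below were made on members at or above the level in all 9 libraries.

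Over the whole table FPKM summed to between 349076 and 366748 in a control library, between 353902 and 364475 in one at 15 mM, and between 366432 and 383347 in one at 30 mM. The number of reads behind each value is not given, so no counting interval can be stated. Rank correlations between libraries across sequences were 0.643 to 0.701 within a dose and 0.569 to 0.654 between doses. Leaf markers, 24 chlorophyll a-b binding proteins and 1 Rubisco small subunit, were above 0 in every library, and their summed FPKM lay between 4991 and 7700 in controls, between 4238 and 5791 at 15 mM, and between 1871 and 3001 at 30 mM. At 30 mM, 19 of these 25 leaf markers fell against control and none rose (limma, adjusted p under 0.05). Markers of other organs were summed as well. Dirigent-like proteins, taken for xylem and root (3 sequences), summed to 5.80 to 9.80 FPKM at 30 mM and 3.98 to 6.88 FPKM in controls, and terpene synthases of glandular trichomes (9 sequences) to 5.69 to 8.67 FPKM at 30 mM and 5.38 to 7.17 FPKM in controls. Of the 3 dirigent-like sequences, 1 rose at 30 mM, T15_3_TRINITY_DN25972_c0_g1, with 5.36 ± 1.15 FPKM at 30 mM and 2.72 ± 0.461 FPKM in controls (SD, n = 3 each; limma, adjusted p = 0.0288). None of the 9 terpene synthases was called (limma; 1 higher and none lower at an unadjusted p under 0.05). Pollen and flower families (37 sequences, among them profilins that other tissues also express) summed to between 107 and 120.5 FPKM in controls, between 119.7 and 171 FPKM at 15 mM, and between 134 and 164 FPKM at 30 mM. At 30 mM, 4 of the 37 rose and 1 fell, where 10% of all sequences tested were called higher and 1.75% lower, and 21.1% and 2.95% of the annotated ones. The part of these shifts in the ribosomal values was not tested. In bulk RNA, fewer cells of a type and less RNA per cell cannot be told apart.

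Cytosolic ribosomal protein transcripts as a group were higher at 30 mM PHBA than in controls, with 40 of 73 sequences called, while 8 of 59 organellar sequences were called higher and their sum overlapped between doses. The 73 cytosolic sequences summed to 881, 888 and 950 FPKM in the control libraries (replicates 1 to 3), 1143, 952 and 1228 FPKM at 15 mM, and 2431, 1640 and 1357 FPKM at 30 mM. All 3 libraries at 30 mM lay above all others, and replicate 1 at 30 mM was the highest of the 9. The 59 organellar sequences summed to 1077, 1309 and 1213 FPKM in controls, 1226, 1019 and 1464 FPKM at 15 mM, and 1316, 1161 and 951 FPKM at 30 mM, and the doses overlapped. The ratio of the organellar to the cytosolic sum lay between 1.22 and 1.48 in controls, between 1.07 and 1.19 at 15 mM, and between 0.541 and 0.708 at 30 mM, with no overlap between the doses. Such a ratio within a library does not depend on how the library was scaled, but it cannot say which side changed. The 2 most abundant organellar sequences held much of that sum, and without them the ratio lay between 0.644 and 0.823 in controls, between 0.575 and 0.658 at 15 mM, and between 0.353 and 0.437 at 30 mM, so that controls and 15 mM then overlapped while 30 mM stayed below both.

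**Figure D1:**
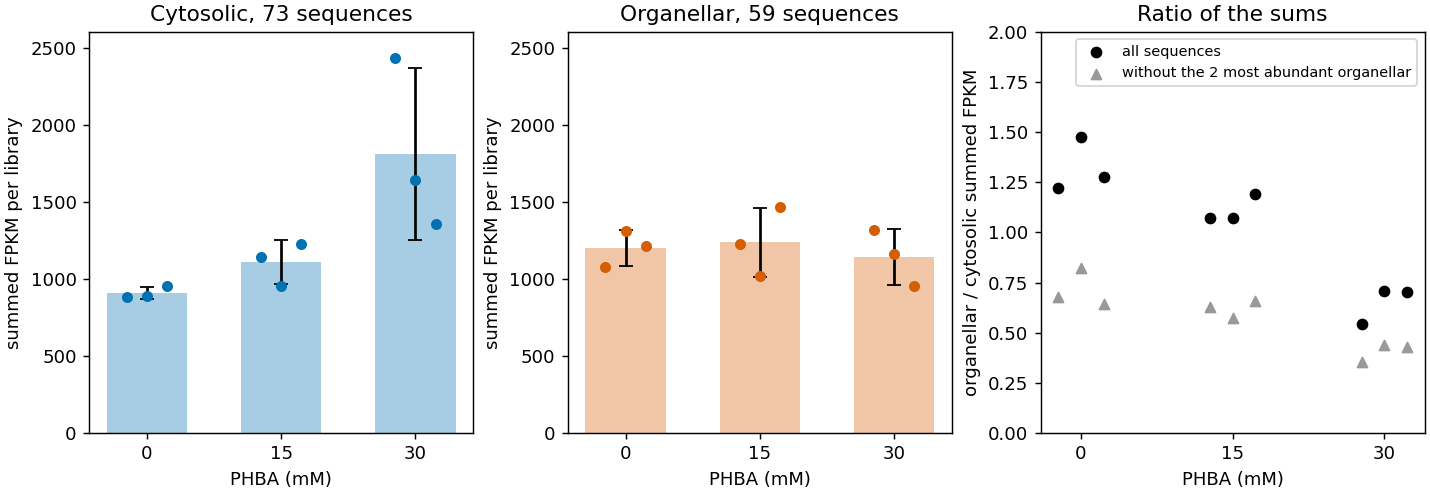
Summed FPKM of the 73 cytosolic and 59 organellar ribosomal sequences by PHBA dose (bars are means, error bars the SD of 3 libraries, points the libraries), and the ratio of the 2 sums in each library, with and without the 2 most abundant organellar sequences. The cytosolic sum reached 1357 to 2431 FPKM at 30 mM, the organellar sums overlapped between doses, and the ratio at 30 mM lay below all other libraries.

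Each sequence was then tested across doses with limma on log2(FPKM + 1), with p-values adjusted over all 44203 sequences tested and calls at an adjusted p under 0.05. Between 30 mM and control, 40 of the 73 cytosolic sequences rose and none fell, where 10% of all sequences tested were called higher and 1.75% lower, and 21.1% and 2.95% of the annotated ones. No cytosolic sequence had a lower value at an unadjusted p under 0.05, and 63 had a higher one. The 3 libraries at 30 mM lay above the 3 controls in 64 of 73 cytosolic sequences, and below them in none, beside 25.9% and 6.04% of all sequences tested and 47.3% and 7.92% of the annotated ones. The median log2 fold change of the cytosolic sequences was 0.88, beside 0.18 over all sequences tested and 0.30 over the annotated ones. Log2 fold changes on this scale understate the change of sequences with low values.

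The cytosolic sequences were abundant, so they were also set beside annotated sequences of similar level. Of the 57 cytosolic sequences averaging 5 FPKM or more, 38 rose and none fell, and in all 57 the 30 mM libraries lay above the controls. Among annotated sequences at that level, 34.9% were called higher and 5.34% lower, while 58.1% lay above the controls in this way and 11.6% below them. The median log2 fold change was 0.94 for these 57 and 0.45 for the annotated sequences of that level. Of the 16 cytosolic sequences below 5 FPKM, 2 rose and none fell, beside 16.6% and 2.18% of annotated sequences of that level. The 30 mM libraries lay above the controls in 7 of the 16, beside 43.8% of those annotated sequences. Medians were 0.35 and 0.27. The share called higher was thus above that of annotated sequences at 5 FPKM or more, and not below it.

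The number of calls rested on single libraries more than the direction did. Without 30 mM replicate 1, the highest library in 67 of the 73 cytosolic sequences, 24 cytosolic sequences were called and the class median was 0.65. Leaving out control replicate 1 gave 11 calls, control replicate 2 gave 10, control replicate 3 gave 18 and 15 mM replicate 1 gave 22, and in none of these fits was a cytosolic sequence called lower. The median over all sequences shifted by -0.19 log2 units under either rescaling of the libraries, and 14 cytosolic sequences were called after quantile normalization and 23 after median-of-ratios rescaling. How many of all sequences were called in these alternative fits was not counted, so their counts have no background beside them. The cytosolic median lay above the median of all sequences by 0.70 as deposited, by 0.41 after quantile normalization and by 0.50 after median-of-ratios rescaling.

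**Figure D2:**
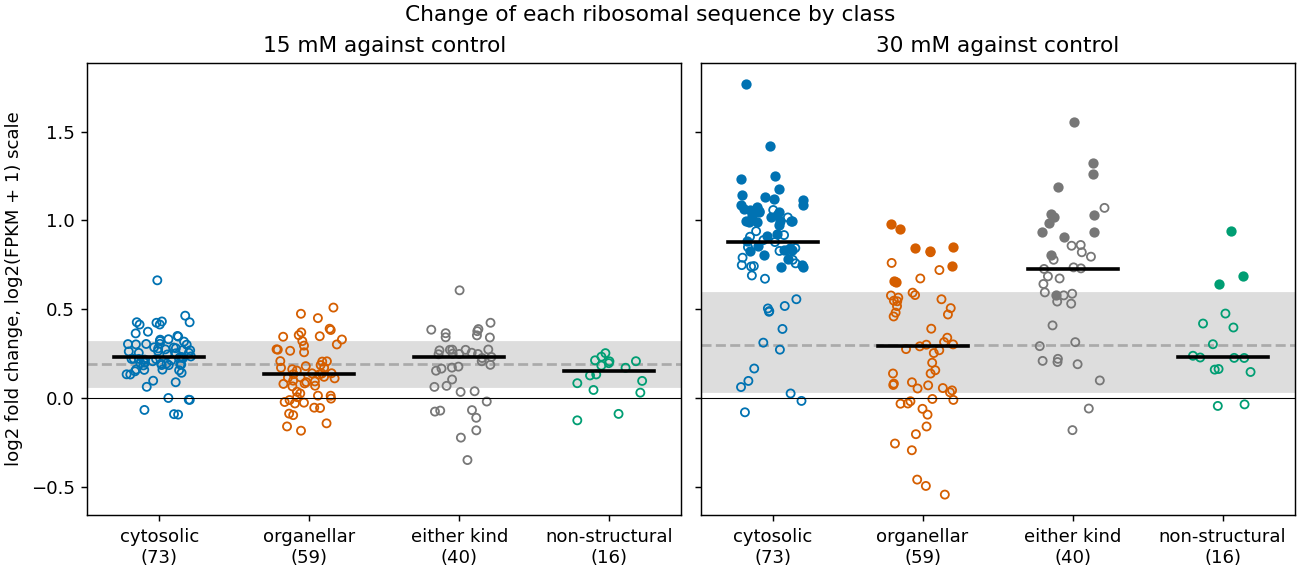
Log2 fold change of each ribosomal sequence against control at 15 mM and at 30 mM, on the log2(FPKM + 1) scale, by class with the number of sequences (filled points were called at an adjusted p under 0.05, black bars are class medians, the grey band and dashed line are the quartiles and median of all annotated sequences). At 15 mM no ribosomal sequence was called, and at 30 mM the cytosolic median of 0.88 lay above the band while the organellar median of 0.29 lay close to the annotated median of 0.30.

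Of the cytosolic large subunit, 26 of 43 sequences rose at 30 mM, with a median log2 fold change of 0.91. The largest rise among the cytosolic members was that of L10e, a protein that joins the large subunit late in its assembly, in work on yeast. Its only member, TCK_2_TRINITY_DN839_c0_g1, had 10.2, 9.06 and 12.02 FPKM at 0 mM, 19.1, 11.7 and 21.9 FPKM at 15 mM, and 50.2, 36.2 and 29.6 FPKM at 30 mM. The 30 mM libraries did not overlap with any other, and 2 of the 15 mM libraries lay above all controls (log2 fold change 1.77, SE 0.25, adjusted p = 0.00314). It remained called under all 19 alternative settings tried, with log2 fold changes of 1.27 to 1.94.

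The acidic proteins P0, P1 and P2 form the stalk of the large subunit that recruits the translation factors that hydrolyse GTP. The P1 sequence TCK_3_TRINITY_DN9100_c0_g1 had 2.51, 2.62 and 3.53 FPKM at 0 mM, 4.29, 3.37 and 5.53 FPKM at 15 mM, and 15.9, 8.05 and 6.26 FPKM at 30 mM. It rose (log2 fold change 1.42, SE 0.30, adjusted p = 0.0172), with the 30 mM libraries above all others and most spread of the 3 doses. The P2 sequence T30_3_TRINITY_DN2367_c0_g1 averaged 21.7 ± 6.12 FPKM at 30 mM and 11.2 ± 0.612 FPKM in controls (SD, n = 3 each), and it rose as well (log2 fold change 0.86, SE 0.22, adjusted p = 0.0357). P0, the base of the stalk, averaged 17.9 ± 6.01 FPKM at 30 mM and 9.31 ± 0.869 FPKM in controls for T30_3_TRINITY_DN16338_c0_g1, and was not called (log2 fold change 0.83, SE 0.25, adjusted p = 0.0697).

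L24e, which helps to bridge the subunits and in Arabidopsis is needed for reinitiation of translation on some messages, had 4 member sequences and all 4 rose. TCK_2_TRINITY_DN3178_c0_g3 had 20.5, 24.2 and 20.9 FPKM at 0 mM, 23.7, 26.9 and 26.2 FPKM at 15 mM, and 71.97, 49.5 and 36.3 FPKM at 30 mM, the largest change of the 4 (log2 fold change 1.18, SE 0.22, adjusted p = 0.0103). In TCK_1_TRINITY_DN2828_c0_g1 the libraries of a dose lay closer together, with 17.6, 18.2 and 18.3 FPKM at 0 mM, 23.98, 21.9 and 20.7 FPKM at 15 mM, and 38.4, 29.8 and 31.1 FPKM at 30 mM. This gave the second smallest adjusted p among the cytosolic members on a smaller change (log2 fold change 0.83, SE 0.12, adjusted p = 0.00371). The other two were T15_3_TRINITY_DN11870_c0_g1, with 55.8 ± 17.9 FPKM at 30 mM and 24.2 ± 2.74 FPKM in controls, and TCK_3_TRINITY_DN2187_c0_g1, with 10.6 ± 4.49 and 4.56 ± 0.762 FPKM in the same groups (SD, n = 3 each).

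Several other large subunit families were called in all their sequences. All 3 L18Ae sequences rose, and T15_2_TRINITY_DN10350_c0_g4 had 7.58, 7.45 and 7.86 FPKM at 0 mM, 8.95, 8.85 and 9.6 FPKM at 15 mM, and 27.9, 17.1 and 14.9 FPKM at 30 mM. Its libraries at 0 and 15 mM spread by less than 1 FPKM within a dose, and the 30 mM libraries lay far above both (log2 fold change 1.23, SE 0.20, adjusted p = 0.00553). Both L13e sequences rose, and T30_1_TRINITY_DN7983_c0_g1 had 23.1, 24.1 and 22.6 FPKM at 0 mM, 32.2, 27.1 and 36.3 FPKM at 15 mM, and 73.02, 46.7 and 43 FPKM at 30 mM (log2 fold change 1.15, SE 0.20, adjusted p = 0.007797). Again the 30 mM libraries did not overlap with the others, and the 15 mM libraries lay above the controls.

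The 4 L6e sequences were less uniform: 3 rose, and TCK_3_TRINITY_DN60059_c0_g1, with a mean of 0.439 FPKM, had a log2 fold change of -0.08. Both sequences of L23 and both of L4 also rose, while none of the 4 annotated with the L13 family was called (log2 fold changes 0.03 to 0.92). For L19e, whose long helix contacts the small subunit, the single sequence TCK_1_TRINITY_DN287_c0_g1 was the most abundant cytosolic member, with 68.2, 65.05 and 66.5 FPKM at 0 mM, 82.7, 75.8 and 88.96 FPKM at 15 mM, and 150.3, 116.2 and 96.97 FPKM at 30 mM. All treated libraries lay above the controls, and the change at 30 mM was close to the class median (log2 fold change 0.83, SE 0.16, adjusted p = 0.0136).

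The second most abundant, the L7e sequence TCK_3_TRINITY_DN3422_c0_g2, had 65.03, 66.8 and 70.3 FPKM at 0 mM, 81.2, 69.2 and 82.6 FPKM at 15 mM, and 119.8, 102.8 and 73.7 FPKM at 30 mM. Replicate 3 at 30 mM lay among the 15 mM libraries, and the sequence was not called (log2 fold change 0.52, SE 0.18, adjusted p = 0.101), but it was without that library (adjusted p = 0.0232). The L21e sequence T30_2_TRINITY_DN506_c0_g2 had 33.2, 32.4 and 32.4 FPKM at 0 mM, 38.96, 46.5 and 40.6 FPKM at 15 mM, and 76.5, 52.2 and 42.8 FPKM at 30 mM. It rose (log2 fold change 0.75, SE 0.19, adjusted p = 0.0393), although replicate 3 at 30 mM lay below replicate 2 at 15 mM, and the call was lost under 14 of 19 alternative settings.

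**Figure D3:**
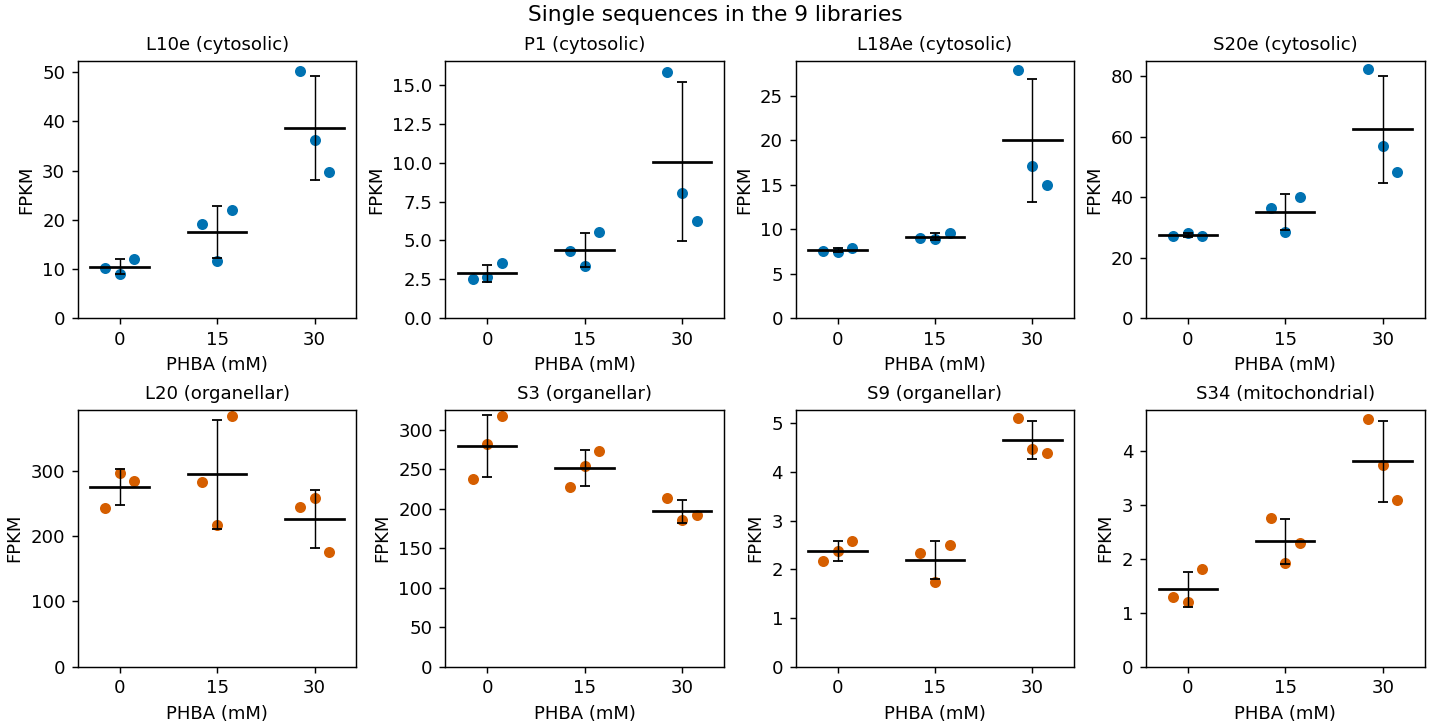
FPKM of 8 single ribosomal sequences in the 9 libraries by PHBA dose (points are libraries, black bars means, error bars the SD of 3 libraries, each axis starting at 0). The upper row shows cytosolic L10e, P1, L18Ae and S20e, whose 30 mM libraries lay above all others, and the lower row shows organellar L20 and S3, not called, and S9 and mitochondrial S34, which rose.

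Of the cytosolic small subunit, 14 of 30 sequences rose, with a median log2 fold change of 0.86. S23, which lies at the decoding centre, had 4 sequences of which 3 rose, all 3 from a single assembly component. The highest, T30_1_TRINITY_DN3042_c0_g5, had 9.68, 7.25 and 8.87 FPKM at 0 mM, 12.03, 9.89 and 13.9 FPKM at 15 mM, and 33.8, 20.3 and 14.8 FPKM at 30 mM, and its lowest 30 mM library lay just above its highest 15 mM library (log2 fold change 1.25, SE 0.27, adjusted p = 0.01902). The fourth, T30_1_TRINITY_DN72070_c0_g1, had a mean of 0.511 FPKM and overlapped between all doses.

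S6e is the small subunit protein that is phosphorylated by S6 kinase downstream of the growth regulator TOR. TCK_2_TRINITY_DN786_c0_g3 had 17.1, 17.3 and 19.97 FPKM at 0 mM, 23.4, 21.9 and 23.1 FPKM at 15 mM, and 49.99, 35.02 and 32.2 FPKM at 30 mM, so that controls, 15 mM and 30 mM did not overlap (log2 fold change 1.05, SE 0.16, adjusted p = 0.00483). T30_2_TRINITY_DN264_c0_g3 rose too, with 28.6 ± 10.5 FPKM at 30 mM and 12.9 ± 1.25 FPKM in controls, whereas TCK_1_TRINITY_DN599_c0_g2, with 42.98 ± 15.8 and 22.6 ± 2.36 FPKM in the same groups (SD, n = 3 each), missed the threshold (log2 fold change 0.84, SE 0.25, adjusted p = 0.05902). The most abundant small subunit member was the S20e sequence TCK_1_TRINITY_DN1919_c0_g1, with 27.1, 28.2 and 27.3 FPKM at 0 mM, 36.3, 28.6 and 40.2 FPKM at 15 mM, and 82.3, 56.8 and 48.3 FPKM at 30 mM. Its 30 mM libraries lay above all others and its controls were within about 1 FPKM of each other (log2 fold change 1.12, SE 0.20, adjusted p = 0.00904).

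Seen by family, the cytosolic members fell into 35 combinations of Pfam families. The mean summed FPKM was higher at 30 mM than at 0 mM in all 35, 24 had at least 1 called sequence, and 14 had all their sequences called, 6 of these among the 22 with more than 1 sequence. Of the single annotated sequences, 77.2% had a positive log2 fold change at 30 mM. When FPKM was summed per family before the fit, which adds up copies of a family, 22 of 35 cytosolic sums rose. Of the 38 organellar sums, only that of mitochondrial S34 did. Other annotated sequences were not summed by family, so these family counts have no background share beside them. Only 2 cytosolic sequences had a negative log2 fold change at 30 mM, the L6e sequence above and an S7e sequence, TCK_1_TRINITY_DN71010_c0_g1 (-0.02), and both had means under 0.5 FPKM.

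**Figure D4:**
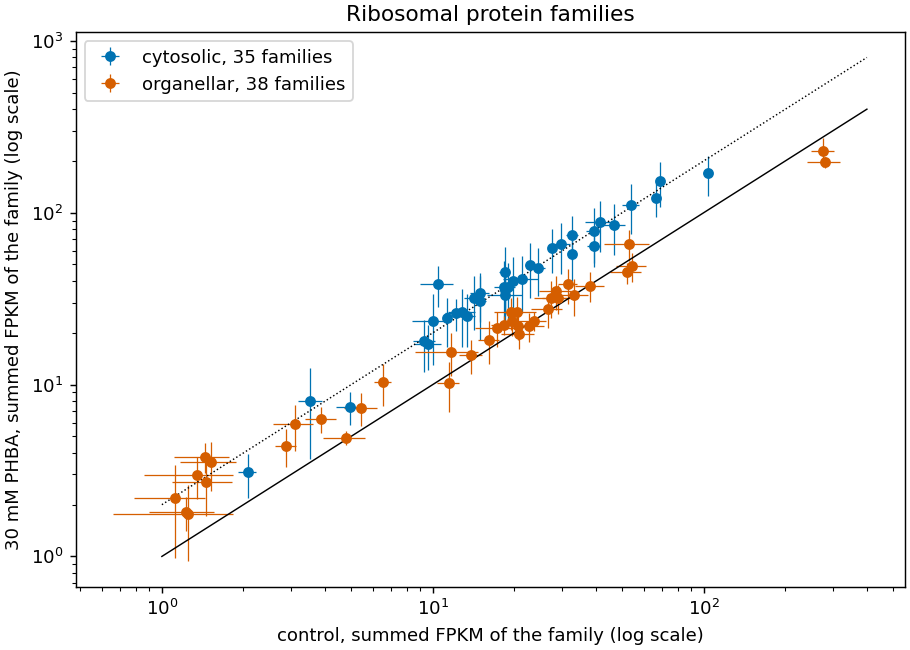
Mean summed FPKM of each cytosolic and organellar family at 30 mM (vertical) against control (horizontal), both on log scales, with SDs of 3 libraries as error bars, the solid line marking equal sums and the dotted line a doubling. All 35 cytosolic families lay above the line of equality, and 28 of the 38 organellar ones did.

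Of the 59 organellar sequences, 8 rose at 30 mM against control and none fell, beside 21.1% and 2.95% of the annotated sequences, and at an unadjusted p under 0.05 there were 19 higher and 1 lower. The 3 libraries at 30 mM lay above the controls in 20 sequences and below them in 1, beside 25.9% and 6.04% of all sequences tested and 47.3% and 7.92% of the annotated ones, and the median log2 fold change was 0.29. The organellar shares, 13.6% called higher and 33.9% above the controls, were below those of the annotated sequences. The difference between the organellar and the cytosolic class was not tested beyond the ratio of the sums above. Under median-of-ratios rescaling 3 were called higher and 6 lower, and under quantile normalization 3 and 10, so the direction of the organellar calls depended on the scaling. The organellar median minus that of all sequences was 0.11 as deposited, 0.01 after quantile normalization and -0.06 after median-of-ratios rescaling. With the 4 most abundant sequences of the table left out, 10 were called higher and 3 lower. The count of 8 fell to between 1 and 5 when a control library, 15 mM replicate 1 or 30 mM replicate 1 was left out. For these alternative fits the share of all sequences called was not counted, so their counts have no background beside them.

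Organellar members differed by level. Of the 29 with a mean under 5 FPKM, 7 rose and the median log2 fold change was 0.56. At that level 2 of the 16 cytosolic members rose, with a lower median of 0.35. Of the annotated sequences under 5 FPKM, 16.6% were called higher and 2.18% lower, with a median of 0.27. Of the 30 organellar members with a higher mean, 1 rose and the median was 0.06, beside 34.9% called higher and a median of 0.45 for annotated sequences at that level. The one that rose among these was T15_2_TRINITY_DN80789_c0_g1, of the L7/L12 family that forms the stalk in bacterial-type ribosomes, with 4.15, 3.36 and 5.15 FPKM at 0 mM, 5.53, 5.27 and 6.48 FPKM at 15 mM, and 7.46, 7.76 and 6.25 FPKM at 30 mM (log2 fold change 0.65, SE 0.16, adjusted p = 0.0292). All treated libraries lay above the controls, though the call was lost under 9 of 19 alternative settings.

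**Figure D5:**
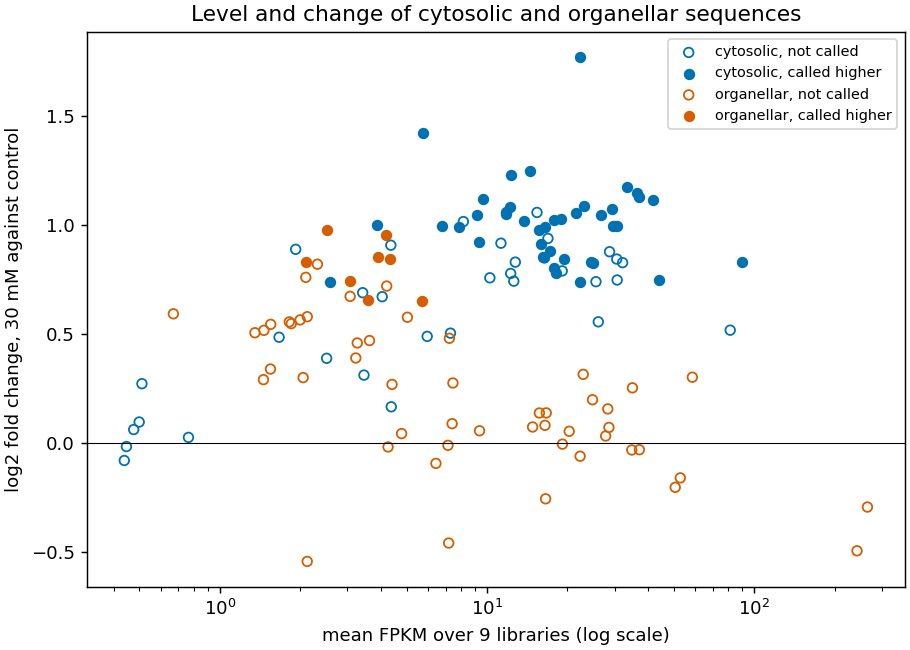
Log2 fold change at 30 mM against control of each cytosolic and organellar sequence plotted against its mean FPKM over the 9 libraries (log scale), filled where called at an adjusted p under 0.05. At 5 FPKM or more the cytosolic sequences had a median of 0.94 and the organellar ones of 0.06. Below it 7 of 29 organellar and 2 of 16 cytosolic sequences were called, with medians of 0.56 and 0.35.

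The 2 most abundant ribosomal sequences of all were organellar and were not called. L20, a protein needed early in assembly of the bacterial large subunit, had 244, 296 and 285 FPKM at 0 mM, 283, 217 and 383 FPKM at 15 mM, and 244, 258 and 176 FPKM at 30 mM in T15_3_TRINITY_DN3906_c0_g3, and the doses overlapped (log2 fold change -0.29, SE 0.24, adjusted p = 0.496). Its sign turned after quantile normalization (0.0058). S3, which lies where messenger RNA enters the small subunit, had 238, 282 and 317 FPKM at 0 mM, 228, 254 and 273 FPKM at 15 mM, and 213, 185 and 191 FPKM at 30 mM in TCK_1_TRINITY_DN4663_c1_g2. Here the 30 mM libraries lay below all other libraries (log2 fold change -0.50, SE 0.16, adjusted p = 0.0784), which missed the threshold. The S3 sequence was called lower in 3 of 19 alternative settings, among them median-of-ratios rescaling (adjusted p = 0.00512), and its log2 fold change was negative in all 19 (-0.90 to -0.21). The next 2 by level were S10 (T15_3_TRINITY_DN14993_c0_g1), with 65.5 ± 13.4 FPKM at 30 mM and 52.8 ± 10.01 FPKM in controls, and L31 (TCK_3_TRINITY_DN4242_c0_g1), with 48.7 ± 9.46 and 54.2 ± 6.81 FPKM in the same groups (SD, n = 3 each). Neither was called (adjusted p = 0.455 and 0.670), and in both the doses overlapped.

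A few organellar families are named for a single organelle. Of the 6 members named for mitochondria 2 rose, with log2 fold changes of 0.29 to 0.98 over the 6 and a median of 0.79. Of the 4 named for plastids none was called and none had an unadjusted p under 0.05, with log2 fold changes of -0.46 to 0.28 and a median of 0.18. These are descriptions of 6 and 4 sequences, and the difference between them was not tested. The mitochondrial small subunit protein S34 (T30_2_TRINITY_DN80792_c0_g1) had 1.29, 1.21 and 1.81 FPKM at 0 mM, 2.76, 1.93 and 2.29 FPKM at 15 mM, and 4.6, 3.74 and 3.1 FPKM at 30 mM, with all treated libraries above all controls (log2 fold change 0.98, SE 0.17, adjusted p = 0.00824). The S6 sequence of mitochondrial type TCK_3_TRINITY_DN337_c0_g1 rose to 6.39 ± 1.96 FPKM at 30 mM, against 3.06 ± 0.626 FPKM in controls (SD, n = 3 each; adjusted p = 0.0297). Among the plastid ones, PSRP-3, a small subunit protein found in plastids and cyanobacteria, had 5.61 ± 1.98 FPKM at 30 mM and 7.85 ± 0.966 FPKM in controls in T15_3_TRINITY_DN989_c0_g1 (log2 fold change -0.46, adjusted p = 0.296). The second PSRP-3 sequence, T15_3_TRINITY_DN22351_c0_g1, had a log2 fold change of 0.27 (adjusted p = 0.562).

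The other organellar sequences that rose are not named for an organelle. S9, whose tail touches the transfer RNA in bacterial ribosomes, had 2.17, 2.37 and 2.58 FPKM at 0 mM, 2.33, 1.74 and 2.49 FPKM at 15 mM, and 5.11, 4.47 and 4.39 FPKM at 30 mM in T30_3_TRINITY_DN6139_c0_g1. Controls and 15 mM overlapped and 30 mM lay above both (log2 fold change 0.75, SE 0.14, adjusted p = 0.0102). L15 (T30_3_TRINITY_DN14886_c0_g1) averaged 5.497 ± 0.867 FPKM at 30 mM and 2.59 ± 0.329 FPKM in controls (SD, n = 3 each; adjusted p = 0.0228). The remaining 3, chosen for mention after their values were seen, were of the L3, L11 and L13 families (T30_2_TRINITY_DN9534_c0_g1, T30_2_TRINITY_DN26228_c0_g1 and T30_1_TRINITY_DN8023_c0_g1), with log2 fold changes of 0.66, 0.95 and 0.83. The largest negative log2 fold change among organellar members, -0.54 for the L6 sequence TCK_3_TRINITY_DN18422_c0_g1, went with values listed at 0 in control replicate 2 and 30 mM replicate 1 and up to 4.98 FPKM elsewhere (adjusted p = 0.725).

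Among the 40 members of either kind, 13 rose at 30 mM and none fell, 27 were higher and none lower at an unadjusted p under 0.05, and the median log2 fold change was 0.73. The share that rose, 32.5%, stands beside 10% of all sequences tested and 21.1% of the annotated ones. By level, 10 of the 23 with a mean of 5 FPKM or more rose, beside 34.9% of annotated sequences of that level. Of the 17 below it 3 rose, beside 16.6%. The S13 sequence T30_1_TRINITY_DN423_c0_g2, of a family at the interface of the subunits, had 3.59, 4.25 and 4.56 FPKM at 0 mM, 8.32, 4.69 and 7.92 FPKM at 15 mM, and 17.1, 9.72 and 8.5 FPKM at 30 mM (log2 fold change 1.26, SE 0.27, adjusted p = 0.0186). Its 30 mM libraries lay above all others. Both L3 sequences rose, and L3 is a core protein near the peptidyl transferase centre. T30_2_TRINITY_DN2066_c0_g1 averaged 42.6 ± 14.8 FPKM at 30 mM and 19.6 ± 0.881 FPKM in controls (SD, n = 3 each), and was called (log2 fold change 1.03, SE 0.24, adjusted p = 0.0243). The rarer T30_3_TRINITY_DN879_c0_g1 had 13.1, 3.50 and 5.98 FPKM at 30 mM, against 1.20, 1.95 and 1.69 FPKM in controls, and was high in 30 mM replicate 1 above all (log2 fold change 1.55, SE 0.35, adjusted p = 0.02299). The L5 sequence T15_2_TRINITY_DN55_c0_g2 had 15.3, 16 and 18.04 FPKM at 0 mM, 19.9, 18.4 and 18.2 FPKM at 15 mM, and 47.7, 28.2 and 29.99 FPKM at 30 mM, and its 15 mM libraries lay just above the controls (log2 fold change 1.02, SE 0.19, adjusted p = 0.0101).

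Among the L6 sequences, 2 rose, TCK_3_TRINITY_DN843_c1_g1 with 59.3 ± 19.4 FPKM at 30 mM and 29.6 ± 3.23 FPKM in controls (adjusted p = 0.0210), and TCK_2_TRINITY_DN97_c0_g1 with 26.8 ± 11.6 and 11.8 ± 0.774 FPKM in the same groups (SD, n = 3 each; adjusted p = 0.0413). The call of TCK_2_TRINITY_DN97_c0_g1, like that of the L1 sequence T30_1_TRINITY_DN730_c0_g2 (log2 fold change 0.94, adjusted p = 0.0397), was lost under at least 12 of 19 alternative settings. The L11 sequence T30_1_TRINITY_DN576_c0_g2 also rose (log2 fold change 1.19, adjusted p = 0.0273). The 3 most abundant members of either kind were not called. The S8 sequence T30_1_TRINITY_DN74116_c0_g1, the S3 sequence T30_1_TRINITY_DN2431_c0_g1 and T15_3_TRINITY_DN736_c0_g1, which carries both an L2 and an S10 domain, had log2 fold changes of -0.06, 0.20 and 0.21 (adjusted p = 0.913, 0.637 and 0.538). Their signs turned under 1 or 2 of the 19 settings each.

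The 16 non-structural members include enzymes and assembly factors, and 3 rose while none fell (4 higher and none lower at an unadjusted p under 0.05), with a median log2 fold change of 0.23. The share that rose, 18.8%, was near the 21.1% of annotated sequences called higher. Nhp2, part of the particles that guide pseudouridylation of ribosomal RNA, rose to 7.47 FPKM on average at 30 mM, against 3.30 FPKM in controls, in T30_2_TRINITY_DN8785_c0_g1 (log2 fold change 0.94, SE 0.23, adjusted p = 0.0317). A methyltransferase of the PrmA type, the enzyme that modifies L11 in bacteria, also rose (log2 fold change 0.64, SE 0.15, adjusted p = 0.0283, T30_2_TRINITY_DN1853_c0_g1), 1 of 7 such sequences. The third, T15_3_TRINITY_DN10764_c0_g1, joins a UTP-glucose-1-phosphate uridylyltransferase domain and a ribosomal S2 domain (log2 fold change 0.68, SE 0.17, adjusted p = 0.0313). The assembly factors Mrt4 (T15_1_TRINITY_DN6197_c0_g1) and NSA2 (T15_3_TRINITY_DN8387_c0_g1), known from yeast, had log2 fold changes of 0.24 and 0.40 and were not called. The hibernation promoting factor T30_2_TRINITY_DN8270_c0_g1, whose relatives silence bacterial-type ribosomes, had 16.4 ± 5.46 FPKM at 30 mM and 14.1 ± 1.36 FPKM in controls (SD, n = 3 each; adjusted p = 0.701). None of the 4 MORC-type ATPases, nuclear proteins with a domain named for S5, was called.

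At 15 mM no ribosomal sequence of any class was called against control, where 0.0837% of all sequences tested were called higher and 0.0158% lower, and 0.132% and 0% of the annotated ones. At an unadjusted p under 0.05 (limma), 5 of the 188 were higher and none lower. Of all 44203 sequences tested, 3957 were higher and 646 lower at that level, and of the 13634 annotated ones 1937 and 127. The share of members that were higher was below both. No alternative setting called a cytosolic or organellar sequence at this dose. The smallest adjusted p was 0.425. The 15 mM libraries lay above all controls in 30 of the 188 and below them in none, beside 14.7% and 2.37% of all sequences tested. Among the 13634 annotated sequences they lay above in 3240 and below in 276, so the share of members above was below that of the annotated ones. Median log2 fold changes were 0.23 for cytosolic, 0.13 for organellar and 0.23 for members of either kind, beside 0.15 over all sequences tested and 0.19 over the annotated ones. L10e had 1 of the 5 unadjusted p-values under 0.05, with a log2 fold change of 0.66 (adjusted p = 0.425). The others were L24e (TCK_1_TRINITY_DN2828_c0_g1, 0.28) and the organellar S34, L7/L12 and L3 sequences described above (0.45, 0.38 and 0.39). Replicate 2 at 15 mM was the lowest of the dose for the cytosolic sum, at 952 FPKM against 1143 and 1228 FPKM in replicates 1 and 3.

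Between 30 mM and 15 mM, 2 cytosolic sequences and 1 organellar sequence rose and none fell, where 2.41% of all sequences tested were called higher and 0.69% lower, and 4.81% and 1.15% of the annotated ones. The shares called, 2.74% of the cytosolic and 1.69% of the organellar sequences, were near that of all sequences and below that of the annotated ones. At an unadjusted p under 0.05 (limma), 78 of the 188 were higher and none lower, with 48 of the 73 cytosolic and 7 of the 59 organellar sequences higher. Of all 44203 sequences tested, 4919 were higher and 2525 lower at that level, and of the 13634 annotated ones 2678 and 910. At this unadjusted level too, the organellar share was near that of all sequences and below that of the annotated ones. The cytosolic calls were the L18Ae sequence T15_2_TRINITY_DN10350_c0_g4 (log2 fold change 1.001, SE 0.20, adjusted p = 0.0329) together with the L6e sequence T30_1_TRINITY_DN149_c0_g4. This L6e sequence averaged 46.5 ± 14.9 FPKM at 30 mM and 23.5 ± 0.804 FPKM at 15 mM (SD, n = 3 each), a log2 fold change of 0.91 (SE 0.20, adjusted p = 0.0452). S9 was the organellar call (T30_3_TRINITY_DN6139_c0_g1, log2 fold change 0.83, SE 0.14, adjusted p = 0.0165). Both cytosolic calls were lost without any 1 control library or any 1 of the 15 mM libraries. Median log2 fold changes were 0.65 for cytosolic, 0.13 for organellar and 0.55 for members of either kind, beside 0.05 over all sequences tested.

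Over the 3 doses, the mean was highest at 30 mM in 69 of 73 cytosolic sequences and followed the order 0, 15, 30 mM in 65. It was highest at 30 mM in 42 of 59 organellar sequences, at 15 mM in 10 and at 0 mM in 7. Of the annotated sequences, 77.2% had a positive log2 fold change at 30 mM against control and 64.4% against 15 mM. The orders themselves were counted in the members alone, so no background share stands beside them. The comparisons of each dose with control share the same 3 control libraries, so these orders are not independent of the tests above. Replicate 1 at 30 mM was the highest of the 9 libraries in 67 cytosolic and 35 organellar sequences, and 15 mM replicate 3 in 15 organellar ones.

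Other parts of the translation machinery, listed by family names in the annotation, were set beside the ribosomal proteins. Their counts are read against the 21.1% of annotated sequences called higher at 30 mM against control and the 2.95% called lower. Of 41 ribosome biogenesis sequences, 7 rose at 30 mM against control and none fell, with a median log2 fold change of 0.50. The 30 mM libraries lay above the controls in 75.6% of these sequences, beside 47.3% of the annotated ones. At an unadjusted p under 0.05 (limma), 28 of the 41 were higher, beside 5450 of the 13634 annotated sequences. By these measures and the median the list lay above the annotated sequences, but the share called higher, 17.1%, was below theirs. The 7 that rose included a Utp11 sequence of the small subunit processome, which cuts and folds the precursor of the small subunit (TCK_1_TRINITY_DN5680_c0_g2, log2 fold change 0.92, adjusted p = 0.00870). They also included a NOP5-type snoRNA binding protein (T15_1_TRINITY_DN2179_c0_g2, 0.94, adjusted p = 0.0223). Translation initiation factors had 11 of 33 higher and 1 lower (median 0.60), elongation and release factors 7 of 26 higher and none lower (median 0.56), and aminoacyl-tRNA synthetases, which load transfer RNAs, 10 of 41 higher and none lower (median 0.29), beside a median of 0.30 over the annotated sequences. These are shares of 33.3%, 26.9% and 24.4% called higher. The synthetases lay near the annotated sequences in share called and in median. The elongation factors lay near them in share called, but their median was higher. In the same order, the 30 mM libraries lay above the controls in 66.7%, 65.4% and 53.7% of sequences, beside 47.3% of the annotated ones. At an unadjusted p under 0.05 (limma), 22, 17 and 18 were higher. The sequence of the initiation list that fell, T30_2_TRINITY_DN4040_c0_g1, carries a domain named for an eIF3 subunit and the CLU family and averaged 8.80 FPKM at 30 mM and 17.3 FPKM in controls (log2 fold change -0.92, adjusted p = 0.0219). It and some others of that list were matched only by the name of this eIF3 domain. These may not be initiation factors, and they were not left out of the counts. Of 4 subunits of RNA polymerase III, which transcribes transfer RNA and 5S ribosomal RNA genes, 1 rose and none fell (median 0.28). At an unadjusted p under 0.05 the lower counts in these lists were 0 for biogenesis and for the polymerase, and 1 each for initiation, elongation and the synthetases. At 15 mM none of these lists had a called member, and unadjusted there were 1, 3, 0 and 2 higher and none lower in the first 4. Of the 13634 annotated sequences, 1937 were higher and 127 lower unadjusted at that dose.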

How the data were processed

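RNA of tomato leaves was sequenced in 9 libraries, 3 at each of 3 PHBA doses, and assembled without a genome. The authors deposited FPKM values per assembled sequence, per the file headers, with an annotation of protein families. Tools listed without a role in the submitters' processing notes are DESeq, RSEM, FastQC 0.11.5 and Trimmomatic 0.36. For the assembler and the mapping settings, nothing was given in the sources used. No read counts were used, so depth is unknown and no count test was possible.

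FPKM was used as deposited. Sequences at 0.5 FPKM or more in at least 3 libraries were kept, and log2(FPKM + 1) was fitted with limma 3.58.1 in R 4.3.3, with the 3 doses in 1 model (6 residual degrees of freedom), a mean-dependent variance prior and Benjamini-Hochberg adjustment over all kept sequences. The procedure was tested on simulated data with independent noise for each sequence and library. Those data held no shift shared by the sequences of a library. The simulation therefore cannot show how far the counts depend on single libraries.

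The members and lists were chosen with earlier results of these data known. Classes were to come from the KEGG column, but it holds no ribosomal protein name, so names in the Pfam, TIGRFAM, CDD, InterPro and PRINTS columns were used. Lists were words matched in the annotation, and after the results were seen sequences of unrelated families were left out by name (5 of ribosome biogenesis, 13 of initiation, 13 of elongation, 8 of the synthetases, 2 of the RNA polymerases, 2 of xylem and root). Sequences were named by a rule: per class, the called ones with the largest changes and a mean of at least 5 FPKM, the 4 most abundant and the 3 with the smallest adjusted p. Others were named for their role or family after their values were seen. Alternatives were other pseudocounts, filters, scalings, weights, a replicate block and each library left out.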

Additional observations from a re-analysis of the deposited data

How the results depend on the processing

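No setting tried called a cytosolic sequence lower in any comparison, and none called a cytosolic or organellar sequence at 15 mM against control. For 30 mM against control, where 40 cytosolic sequences were called higher, the count was 23 without a filter, 14 with quantile normalization, 23 with median-of-ratios rescaling and 26 from the 6 libraries alone. When FPKM was summed per family, a choice made after seeing the data, 22 of 35 cytosolic families were called. Counting the 40 members of either kind with the 73 cytosolic ones, also chosen after seeing the data, gave 53. These 2 counts have other totals than the 73 sequences, and organellar family sums numbered 38. Leaving out 1 library gave 10 to 56 of the 73 cytosolic sequences. The 8 organellar sequences called higher became 4 without a filter, 2 with a mean of at least 5 FPKM, 3 after either rescaling and from the 6 libraries alone, 1 for family sums, and 1 to 11 leaving out 1 library. Organellar calls lower, 0 as reported (1 at an unadjusted p under 0.05, limma), were 1 at a mean of 5 FPKM or more, 10 with quantile normalization, 6 with median-of-ratios rescaling and 3 without the 4 most abundant sequences. For 30 mM against 15 mM, the 2 cytosolic calls became 1 with a pseudocount of 5, 0 without a filter, 27 at a mean of 5 FPKM or more, 5 with quantile normalization, 14 with median-of-ratios rescaling, 20 without the 4 most abundant sequences, 0 from the 6 libraries alone, 9 with array weights, 0 for family sums, and 0 to 3 leaving out 1 library. The 1 organellar call became 0 with a mean of at least 5 FPKM, from the 6 libraries alone and for family sums, and 0 to 1 leaving out 1 library, and 2 were called lower after quantile normalization. For none of the alternative settings was the share of all sequences called counted, so these counts cannot be read against a background. The cause of these shifts was not tested.

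Deviations of same-numbered libraries from their dose means showed correlations of -0.01 to 0.03 over all sequences tested. Many of these sequences had low values, and differently numbered libraries were not compared. The correlations therefore cannot show whether the numbers pair samples, and the main fit did not treat them as pairs. With the replicate block, 29 cytosolic and 4 organellar sequences were called higher at 30 mM against control, and 0 cytosolic ones against 15 mM.

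Among the named sequences, the log2 fold change for 30 mM against control turned sign for L20 T15_3_TRINITY_DN3906_c0_g3 (0.0058 after quantile normalization), S3 T30_1_TRINITY_DN2431_c0_g1 (-0.085 with quantile normalization, -0.19 with median-of-ratios rescaling), S10 T15_3_TRINITY_DN14993_c0_g1 (-0.095) and L2 with S10 T15_3_TRINITY_DN736_c0_g1 (-0.19), both after median-of-ratios rescaling, and S8 T30_1_TRINITY_DN74116_c0_g1 (0.14 without control replicate 3, 0.17 without 30 mM replicate 2, and down to -0.22 without other single libraries). The 24 named results called as reported were called in 348 of their 453 alternative fits and not in 105, and the 8 not called were called in 6 of their 152. The planned sum over KEGG names was not run because that column names no ribosomal protein. Depth is unknown, so no limit from counting can be given.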
